A study of Mus musculus with 23 samples.

Results

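The comparison set T helper 2 (Th2) cells made in culture against CD4 T cells taken from mice, by small RNA sequencing of their microRNAs. It covered the 4 libraries of cultured Th2 cells and the 4 libraries of CD4 T cells of a series of 23 libraries in 6 groups. Members were chosen by their labels. The authors deposited 4 count tables, called sets 1 to 4 here, and each set held 1 cultured Th2 and 1 CD4 library, which were compared within the set. Libraries carry the number of their set. Lung Th2 cells, cultured ILC2 and lung ILC2 of the same series were used where cultured Th2 cells were set beside them, where ILC2 are group 2 innate lymphoid cells.

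Cultured Th2 cells (n = 4) came from spleen and lymph nodes of Wild type mice, where CD4+ cells were enriched with dynabeads and kept for 5 days with anti-CD3, anti-CD28, IL-4 at 500 U/ml and anti-IFNg at 10 µg/ml. CD4 cells (n = 4) came from the same organs of Wild type mice, were sorted as CD4+CD62LhiCD44loCD25-CD69- (naive) cells and had no treatment. The cultures thus began from bead-enriched CD4+ cells, which can include memory and regulatory T cells, and not from the sorted naive population. The effect of culture and that of the starting cells cannot be told apart here. Lung Th2 cells (n = 3, sets 1 to 3) carried the Il4tm1LKy (4get) reporter allele and were sorted as reporter-positive cells of mice given 50 µg of ovalbumin (OVA) with alum over 3 weeks and aspirated 50 µg of OVA over 3 days. Lung ILC2 (n = 4, no treatment) and cultured ILC2 (n = 4) came from lungs of Wild type mice by a sort for CD45+Thy1+lin-CD4-CD25+ST2+ cells, and the cultured ones were kept for 10 days with IL-33, TSLP and IL-7 at 10 ng/ml. The labels do not say whether the libraries of 1 group stem from different animals or cultures, and the p-values may then reflect technical spread alone. With microRNAs alone, the Th2 state could not be checked by Il4 or Gata3.

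Th2 cells are the helper T cells that make IL-4, IL-5 and IL-13, and they arise when a naive CD4 T cell is triggered through its receptor in the presence of IL-4. A microRNA is a short RNA that guides the Argonaute protein to messenger RNAs, mostly through pairing of its seed, a short stretch near the 5′ end, and lowers their stability and translation. T cell activation is known to lower the overall content of Argonaute and of many mature microRNAs while a few, among them miR-21, miR-155 and the miR-17-92 cluster, are made more.

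The mature sequences below carry the results. They are printed 5′ to 3′ from RefSeq (GRCm38.p6), with the seed, bases 2 to 8, in capitals. The first set holds microRNAs called higher in cultured Th2 cells, beside the uncalled miR-96-5p of the miR-183 and miR-182 cluster, and it shows that the microRNAs of 1 cluster need not share a seed.
miR-21a-5p: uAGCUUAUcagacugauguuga
miR-210-3p: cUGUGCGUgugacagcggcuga
miR-183-5p: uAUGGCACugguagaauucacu
miR-96-5p: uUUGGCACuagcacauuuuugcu
miR-182-5p: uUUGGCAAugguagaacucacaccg
miR-23a-3p: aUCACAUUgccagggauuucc
miR-27a-3p: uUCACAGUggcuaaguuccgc
miR-24-3p: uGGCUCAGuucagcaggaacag
miR-126a-3p: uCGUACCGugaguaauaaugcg

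The second set holds microRNAs that were lower, with miR-181b-5p beside miR-181a-5p because both have the same seed.
miR-181a-5p: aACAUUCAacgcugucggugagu
miR-181b-5p: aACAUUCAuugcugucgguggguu
miR-26a-5p: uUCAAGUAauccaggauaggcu
miR-139-5p: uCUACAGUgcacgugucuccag
miR-150-3p: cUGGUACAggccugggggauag
miR-146a-5p: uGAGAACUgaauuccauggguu

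The third set holds 4 members of the let-7 family, which have 1 seed and were called in opposite directions or not at all. Counted from the 5′ end of let-7c-5p, let-7b-5p differs from it by A17G, and miR-98-5p by G11A and G19U, all outside the seed.
let-7c-5p: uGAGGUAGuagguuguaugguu
let-7b-5p: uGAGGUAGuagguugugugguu
let-7i-5p: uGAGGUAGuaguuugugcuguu
miR-98-5p: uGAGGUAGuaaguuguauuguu

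MiR-21a-5p lies at chr11:86584120-86584141 on the minus strand, inside an exon of Vmp1. MiR-182-5p (chr6:30165962-30165986 on the minus strand) and miR-183-5p (chr6:30169711-30169732 on the minus strand) have no annotated host gene on their strand, and neither do miR-210-3p (chr7:141221407-141221428 on the minus strand) and miR-23a-3p (chr8:84208563-84208583 on the plus strand). Let-7b-5p (chr15:85707325-85707346 on the plus strand) and 1 copy of let-7c-5p (chr15:85706616-85706637 on the plus strand) lie in exons of the same non-coding gene, Lncppara. MiR-98-5p (chrX:151913229-151913250 on the plus strand) lies in an intron of Huwe1. Of 1256 entries in the count files, 1009 matched a RefSeq mature sequence, and these held 95.8% of the counts of the 8 libraries.

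Library totals were 28371902, 2155723, 1005998 and 3983019 counts for cultured Th2, against 1298554, 2235961, 444235 and 1591266 for CD4, in the order of sets 1 to 4. Cultured Th2 library 1 was the deepest. Levels below are normalised CPM, counts scaled to 1000000 per effective library size, which is the total times edgeR's TMM factor. Because that factor was 0.20 in cultured Th2 library 4, where miR-21a-5p held most counts, a normalised CPM of miR-21a-5p can be larger than the 1000000 it is scaled to, and its share of counts is given in its place. Changes are log2 differences, cultured Th2 minus CD4, with their standard error (SE), from edgeR's quasi-likelihood test with the set as a block. An entry is called where its p, adjusted by Benjamini-Hochberg over all 384 entries tested, is below 0.05.

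Cultured Th2 cells differed from CD4 cells in 51 of the 384 tested entries (13.3%), of which 33 were higher (8.59%) and 18 were lower (4.69%) in cultured Th2. MiR-21a-5p, miR-210-3p and the miR-182 and miR-183 pair led the higher ones among abundant microRNAs, and miR-150, miR-181a, let-7b, let-7c and miR-26a led the lower ones. Of the calls, 22 (15 higher, 7 lower) had no overlap between the 4 libraries of each group, against 36 of all 384 entries (9.38%). Cultured Th2 lay above its CD4 partner in 4 of 4 sets for 73 of 384 entries (19.0%) and below it for 60 (15.6%). Without the set as a block, 4 entries were called, miR-21a-5p and miR-210-3p as higher and miR-150-5p and miR-181a-5p as lower. With each of the 8 libraries left out in turn, and under 3 other scalings, 14 of the 51 calls remained. The higher ones of these were both arms of miR-21a, miR-210-3p, miR-182-5p, miR-183-5p, miR-27a-5p, miR-126a-3p and miR-1983, and the lower ones were both arms of miR-150, miR-181a-5p, let-7b-5p, let-7c-5p and miR-26a-5p. The scaling moved the whole distribution: the median log2 change of all tested entries was 0.38 under TMM, 0.36 under DESeq2 size factors, −0.30 under library totals and 0.65 under totals without miR-21a-5p.

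**Figure D1:**
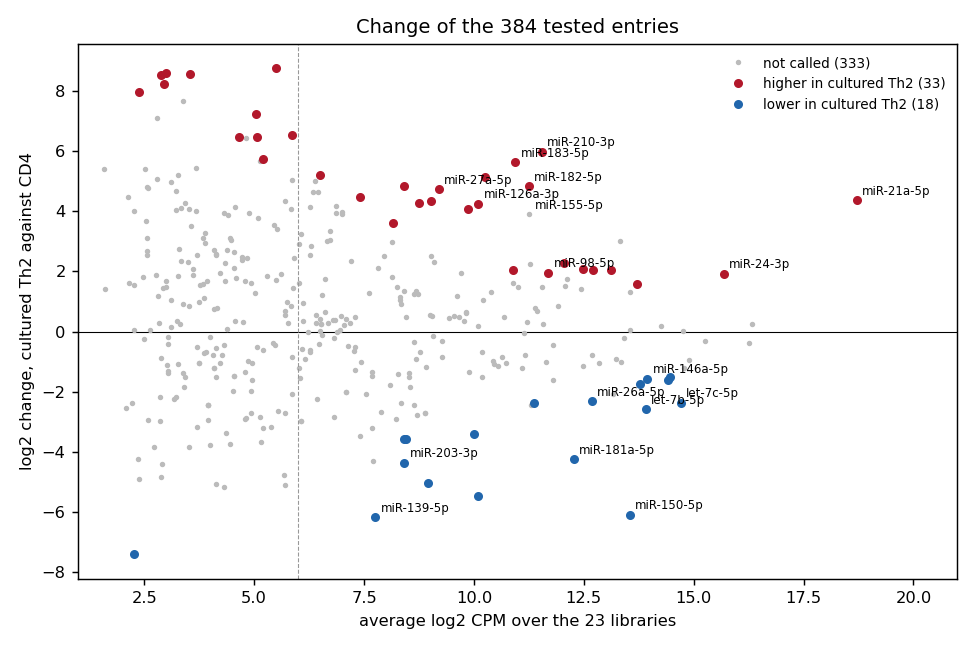
Log2 change of each of the 384 tested entries, cultured Th2 against CD4, by its average log2 CPM over the 23 libraries, with called entries in colour. The dashed line marks an average log2 CPM of 6, right of which miR-210-3p is the highest called entry at 5.99 and miR-139-5p and miR-150-5p are the lowest at −6.18 and −6.09.

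MiR-21a-5p, a microRNA known to rise in activated T cells, took over much of the microRNA pool. It held 29.4, 36.4, 51.9 and 82.2% of the counts in cultured Th2 libraries 1 to 4, against 2.54, 2.16, 4.77 and 9.26% in CD4 libraries 1 to 4. The lowest cultured library was above the highest CD4 library, and set 4 had the highest share in both groups. The log2 change was 4.37 ± 0.49 (adjusted p = 2.81e-08). Its passenger arm, miR-21a-3p, went the same way, with 6068, 1608, 1655 and 5578 normalised CPM in cultured Th2 against 52.8, 86.9, 39.3 and 280.4 in CD4 (log2 change 5.15 ± 1.06, adjusted p = 7.85e-04). These are bulk samples, in which more cells of a kind and more of a microRNA per cell cannot be told apart.

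By mean share, miR-21a-5p was followed in cultured Th2 libraries by miR-24-3p (4.63 ± 7.34% of counts, mean ± SD, n = 4), let-7f-5p (4.39 ± 1.9%) and let-7i-5p (3.95 ± 3.27%). The mean of miR-24-3p came mostly from the deepest cultured library, as its shares were 15.6, 2.08, 0.818 and 0.0358% in set order. CD4 libraries held most of let-7f-5p (10.7 ± 5.8%), miR-29a-3p (6.46 ± 4.2%) and let-7g-5p (5.59 ± 1.88%). The let-7 family as a whole made up 12.9, 19.1, 19.5 and 8.58% of the counts in cultured Th2 libraries, against 46.9, 31.6, 34.7 and 33.3% in CD4 libraries. With miR-21a-5p taken out of the total, the let-7 share was 34.3 ± 13% in cultured Th2 and 38.4 ± 6.79% in CD4 (n = 4 each), higher in cultured Th2 in 2 of 4 sets. The lower let-7 share of the total was thus seen in 4 of 4 sets with miR-21a-5p in the total and in 2 of 4 sets without it.

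**Figure D2:**
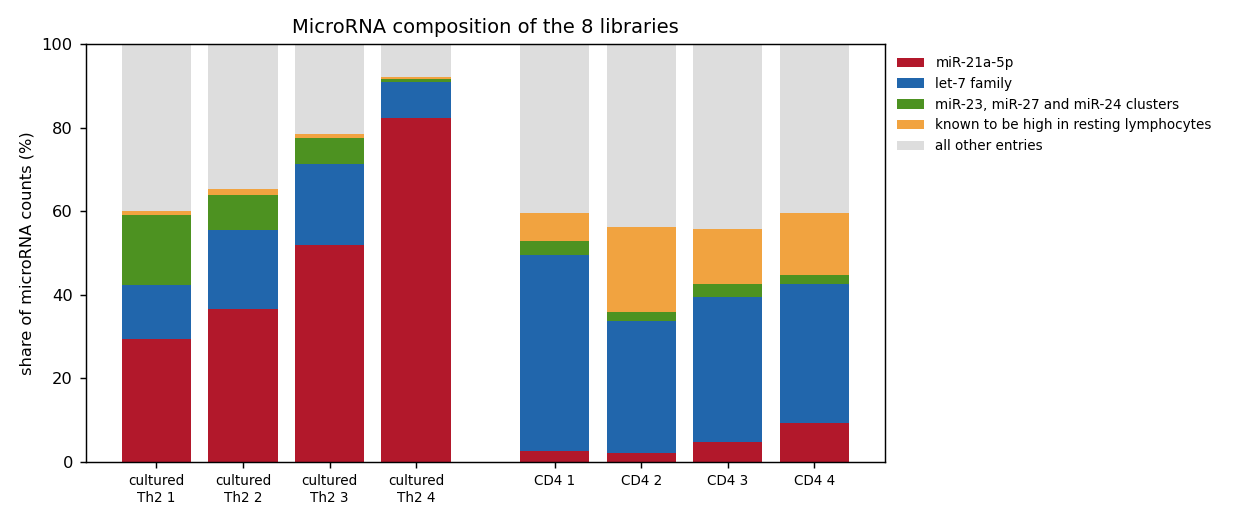
Share of all microRNA counts (%) in each of the 8 libraries, cultured Th2 on the left and CD4 on the right, split into miR-21a-5p, the let-7 family, the miR-23, miR-27 and miR-24 clusters, the list of resting lymphocyte microRNAs, and all others. MiR-21a-5p covers 29.4% to 82.2% of the cultured Th2 bars and 2.16% to 9.26% of the CD4 bars.

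T cell activation is known to raise the microRNAs of a list of 28 entries, of which 22 were tested, 6 were called higher (both arms of miR-21a, miR-210-3p, miR-182-5p, miR-183-5p and miR-155-3p) and 1 was called lower (miR-146a-5p). Of all entries tested, 8.59% were called higher and 4.69% lower. The list's summed share of counts was 52.3 ± 22.8% in cultured Th2 and 5.16 ± 3.16% in CD4 (n = 4 each), most of it miR-21a-5p in cultured Th2. Without miR-21a-5p in the sum or the total the share was 5.42 ± 2.87% in cultured Th2 and 0.506 ± 0.225% in CD4, higher in cultured Th2 in 4 of 4 sets. The median log2 change of the 21 tested members with any count in the 8 libraries was 3.01 (2.47 to 3.06 under the other scalings), beside 0.36 for the 370 such entries in all. Members that pass a filter on low counts only through the group where they are high had to differ, so these medians are a description.

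MiR-210-3p, the microRNA best known as induced by hypoxia through HIF-1, had the largest increase among called entries with an average log2 CPM of at least 6. It stood at 36535, 13552, 7348 and 1641 normalised CPM in the cultured Th2 libraries of sets 1 to 4, against 699, 69.3, 154 and 38.9 in the CD4 libraries. Every cultured library was above every CD4 library, and set 1 was highest in both groups (log2 change 5.99 ± 0.92, adjusted p = 9.33e-06).

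The miR-183, miR-96 and miR-182 cluster is transcribed as 1 unit and is known in mouse T cells for miR-182, which is induced by IL-2 and targets Foxo1. MiR-182-5p stood at 1292, 3288, 2037 and 39182 normalised CPM in the cultured Th2 libraries of sets 1 to 4, against 150.5, 135, 4.91 and 1903 in the CD4 libraries. MiR-183-5p stood at 2107, 2449.6, 2261 and 32698 normalised CPM in the cultured Th2 libraries of sets 1 to 4, against 12, 63.9, 22.9 and 792 in the CD4 libraries. Both were higher in cultured Th2 in 4 of 4 sets, with log2 changes of 4.85 ± 0.94 (adjusted p = 3.98e-04) and 5.64 ± 1.10 (adjusted p = 5.82e-04). On this scale set 4 stood far above the other sets in both groups. For miR-182-5p the highest CD4 library thus overlapped the cultured libraries while each pair within a set kept the direction. As a share of counts the cluster made up 0.2, 0.689, 0.358 and 1.46% in cultured Th2 libraries 1 to 4, against 0.0163, 0.0235, 0.0151 and 0.202% in CD4. The third member, miR-96-5p, had 476, 396, 365 and 147 normalised CPM in cultured Th2 and 48.8, 13.9, 81.8 and 16 in CD4. Its libraries did not overlap between the groups, but its test missed the threshold (log2 change 3.01 ± 1.46, adjusted p = 0.185).

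MiR-155-5p, which is known in mouse T cells to restrain Maf, an activator of Il4, stood at 6469.9, 5411, 2207 and 1511 normalised CPM in cultured Th2 against 1139, 1059, 0 and 26.2 in CD4, where library 3 is listed at 0. The groups did not overlap, and the test fell just short (log2 change 3.91 ± 1.31, adjusted p = 0.0525), with an adjusted p between 0.00324 and 0.345 over the alternatives. In the test of seed families, where nothing else shares its seed, the adjusted p was 0.0394. Its rarer arm miR-155-3p was called higher (log2 change 7.24 ± 2.23, adjusted p = 0.0306), with 44.1, 2.93, 84.2 and 199 normalised CPM in cultured Th2 and 0, 6.56, 0 and 0 in CD4. It was lower in cultured Th2 in set 2. For that arm the adjusted p was above 0.05 when CD4 library 1, 3 or 4 or cultured Th2 library 1 was left out (up to 0.179). MiR-222-3p and miR-221-3p, which target the cell cycle inhibitor p27, were not called (log2 changes 2.10 ± 1.15 and 0.52 ± 1.03).

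MiR-146a-5p, a brake on NF-kappaB signalling through Traf6 and Irak1 that is known to rise in activated T cells, was the member called lower. It stood at 1897, 1187, 1039 and 228 normalised CPM in cultured Th2, against 7000.4, 2620.5, 882 and 1916 in CD4. It was lower in sets 1, 2 and 4 and higher in set 3 (log2 change −1.57 ± 0.52, adjusted p = 0.0425). This call was not firm, since the adjusted p was above 0.05 when CD4 library 1, 2 or 4 or cultured Th2 library 1, 2 or 4 was left out (up to 0.256). The call was also lost under library totals without miR-21a-5p, and it was kept in 0 of 4 cases with 1 set left out.

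**Figure D3:**
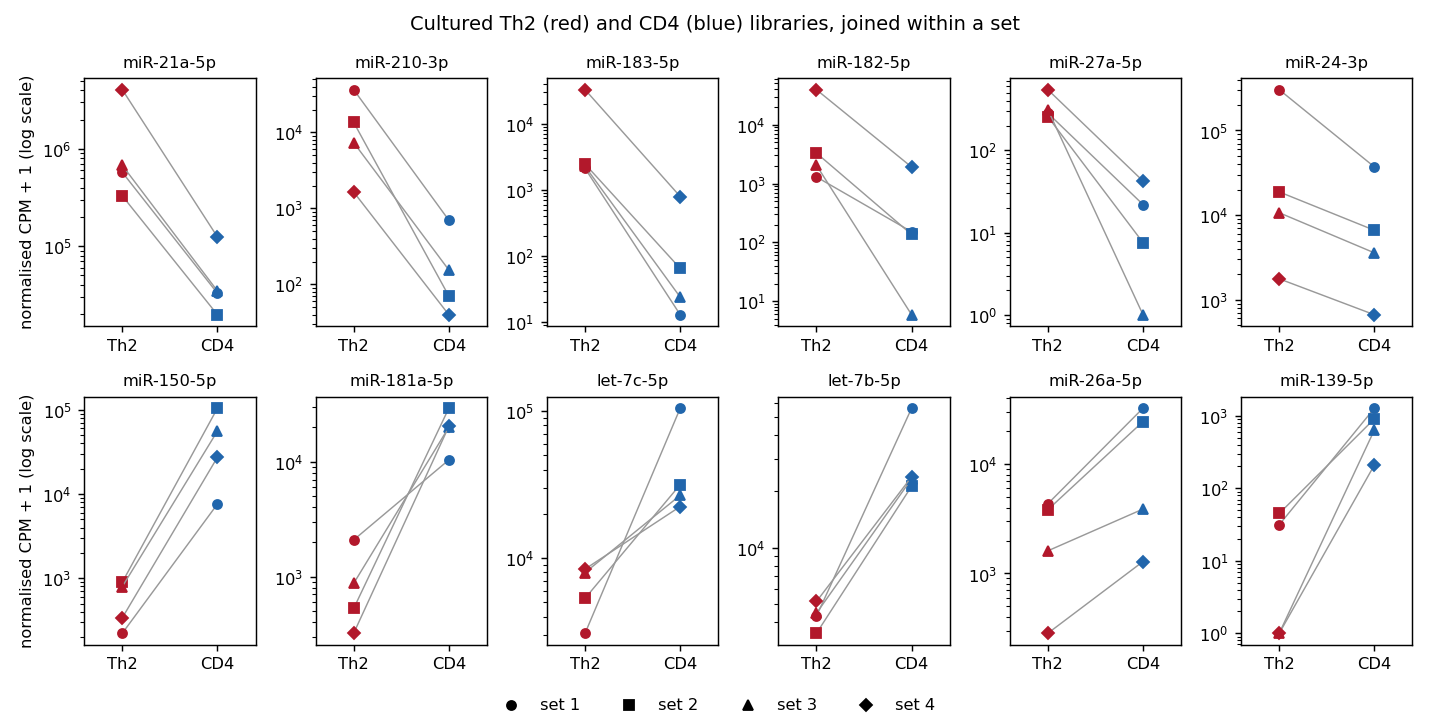
Normalised CPM plus 1 (log scale) of 12 microRNAs in the cultured Th2 (red, left) and CD4 (blue, right) libraries, with a line joining the libraries of 1 set and 1 marker shape per set. All lines of the upper row fall from cultured Th2 to CD4 and all lines of the lower row climb.

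Of the microRNAs that resting lymphocytes are known to hold at high levels, 7 of 18 tested entries were called lower, beside 4.69% of all entries tested. The list has 24 entries, and none was called higher. Like the other lists here, it was chosen with earlier results of these data known, so its counts are a description. The list made up 0.882, 1.45, 0.875 and 0.557% of the counts of cultured Th2 libraries, against 6.73, 20.3, 13.1 and 15% of CD4 libraries, and the groups did not overlap. Without miR-21a-5p in the total the shares were 2.12 ± 0.795% in cultured Th2 and 14.5 ± 5.82% in CD4 (n = 4 each), lower in cultured Th2 in 4 of 4 sets. The median log2 change of the tested members was −2.04 (−2.73 to −1.73 under the other scalings). The lymphocyte markers miR-150, miR-181a and miR-342 together made up 0.0329% to 0.501% of counts in cultured Th2 and 2.26% to 15.6% in CD4.

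MiR-150-5p, which marks mature resting lymphocytes and targets Myb, fell most firmly. It stood at 222, 899, 795 and 339 normalised CPM in cultured Th2, against 7607, 104452, 55901 and 27339 in CD4. The highest cultured library was far below the lowest CD4 library (log2 change −6.09 ± 0.64, adjusted p = 1.82e-09). Its other arm, miR-150-3p, fell as well, with 27.3, 87, 99.7 and 359 normalised CPM in cultured Th2 and 3013, 3999.5, 1114 and 12665 in CD4 (log2 change −5.48 ± 1.05, adjusted p = 3.89e-04). No other entry of the 384 had a smaller adjusted p than miR-150-5p.

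MiR-181a-5p, which tunes the sensitivity of the T cell receptor in thymocytes by lowering phosphatases, stood at 2087, 527, 873 and 320.3 normalised CPM in cultured Th2 and 10380.0, 29273, 20015 and 20324 in CD4 (log2 change −4.26 ± 0.69, adjusted p = 2.24e-05). Its relatives with the same seed, miR-181b-5p (−2.77 ± 1.05, adjusted p = 0.0745) and miR-181c-5p (−1.38, adjusted p = 0.363), had log2 changes below 0 but were not called. Summed over the 4 tested members, the seed family was lower in cultured Th2 (−2.85 ± 0.67, adjusted p = 0.00242). The family's normalised CPM ran from 1117 to 3231 in cultured Th2 and from 11085 to 22997 in CD4.

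MiR-26a-5p, which restrains Ezh2 and cell cycle genes, had 4336, 3825, 1609.6 and 283 normalised CPM in cultured Th2 against 32393, 24455, 3877 and 1284 in CD4. The groups overlapped, because both were high in sets 1 and 2, but cultured Th2 was lower in each set (log2 change −2.32 ± 0.57, adjusted p = 0.00548). MiR-139-5p, held in an intron of Pde2a and known to restrain growth, had 30.4, 43.9, 0 and 0 normalised CPM in cultured Th2, with libraries 3 and 4 listed at 0, against 1272, 907, 636 and 209 in CD4 (log2 change −6.18 ± 1.71, adjusted p = 0.0158). For miR-139-5p the adjusted p was above 0.05 when cultured Th2 library 4 was left out (up to 0.0729). MiR-140-3p (−1.76 ± 0.53, adjusted p = 0.0281) and miR-101a-3p (−2.38 ± 0.80, adjusted p = 0.0425) were also called lower. For both, the adjusted p was above 0.05 when CD4 library 1, 2 or 4 or cultured Th2 library 2, 3 or 4 was left out (for miR-101a-3p up to 0.242). The call of miR-101a-3p was also lost under library totals without miR-21a-5p. MiR-342-3p, a lymphocyte microRNA, was not called (−0.97 ± 0.72, adjusted p = 0.378).

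Of the miR-23, miR-27 and miR-24 clusters, 6 of 11 entries rose in cultured Th2, beside 8.59% of all entries tested. In mice these microRNAs are known to restrain Th2 responses, with miR-24 and miR-27 lowering IL-4 production. All 11 entries were tested and none was called lower. All 11 log2 changes were above 0, with a median of 2.52 (2.14 to 2.82 under the other scalings), whereas 208 of the 370 tested entries with counts were above 0. Their share of counts was 16.8, 8.2, 6.26 and 0.797% in cultured Th2 libraries, against 3.41, 2.11, 3.18 and 2.04% in CD4 libraries. In set 4 cultured Th2 was lower on this scale. Without miR-21a-5p in the total, the share was 23.7, 12.9, 13 and 4.49% in cultured Th2 and 3.5, 2.16, 3.34 and 2.25% in CD4, higher in cultured Th2 in 4 of 4 sets.

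MiR-24-3p was the most abundant of them, at 303271, 18789, 10659 and 1764 normalised CPM in cultured Th2 against 37085, 6614, 3576 and 663 in CD4. The level differed widely between sets in cultured Th2, yet cultured Th2 was higher in each set (log2 change 1.92 ± 0.42, adjusted p = 0.00147). Without cultured Th2 library 1, the deepest, the adjusted p was 0.0555 and the log2 change 1.24. MiR-23a-3p had 619.6, 3911, 3134 and 874 normalised CPM in cultured Th2 and 91.7, 827, 789 and 153 in CD4 (log2 change 2.30 ± 0.58, adjusted p = 0.00707). For miR-23a-3p the adjusted p was above 0.05 when CD4 library 1 or 4 was left out (up to 0.106). MiR-27a-3p (2.05 ± 0.61, adjusted p = 0.0268) and miR-23b-3p (2.05 ± 0.67, adjusted p = 0.0416) were called too. With 1 library left out, miR-27a-3p kept its call in 3 of 8 cases (adjusted p up to 0.0874) and miR-23b-3p in 1 of 8 (up to 0.223). Each of the 4 calls of miR-24-3p, miR-23a-3p, miR-27a-3p and miR-23b-3p was lost when counts were scaled by library totals.

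The minor arms miR-27a-5p and miR-24-2-5p had larger estimates than the major arms. MiR-27a-5p stood at 283, 256, 312 and 547 normalised CPM in cultured Th2 against 20.9, 6.56, 0 and 41.4 in CD4, with no overlap (log2 change 4.75 ± 1.26, adjusted p = 0.0113). MiR-24-2-5p stood at 589, 609, 346 and 66.8 in cultured Th2 against 90.7, 43.4, 0 and 0 in CD4 (log2 change 4.28 ± 1.24, adjusted p = 0.0221). For miR-24-2-5p the adjusted p was above 0.05 when CD4 library 2, 3 or 4 or cultured Th2 library 1 or 2 was left out (up to 0.128). Whether the minor arms differed from the major arms in their change was not tested.

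Within the let-7 family, the major arms share a seed and restrain growth genes such as Myc and Lin28. Members with this same seed were called in opposite directions. The list of the family also holds minor arms without that seed, so the counts and median that follow cover both kinds. Of 22 entries 17 were tested, 1 was called higher and 2 lower, with a median log2 change of −0.38 (−1.13 to −0.06 under the other scalings). Let-7c-5p had 3087, 5338, 7987 and 8438 normalised CPM in cultured Th2 and 104723, 31652, 26796 and 22458 in CD4 (log2 change −2.37 ± 0.51, adjusted p = 0.00147). Let-7b-5p had 4286, 3471, 4447 and 5139 in cultured Th2 and 55963, 21347, 23397 and 23980.0 in CD4 (log2 change −2.59 ± 0.58, adjusted p = 0.0021). Neither overlapped between the groups. Let-7g-5p (−1.22 ± 0.49, adjusted p = 0.0933) was not called, nor were let-7f-5p (−0.38 ± 0.44) and let-7i-5p (0.24 ± 0.44).

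MiR-98-5p was the member called higher, with 6735, 3386, 4856 and 1254 normalised CPM in cultured Th2 and 4101, 820.5, 639.7 and 305 in CD4 (log2 change 1.96 ± 0.65, adjusted p = 0.0425). Cultured Th2 was higher in each set, but the adjusted p was above 0.05 when CD4 library 1, 2, 3 or 4 or cultured Th2 library 1, 2 or 3 was left out (up to 0.211), and the call was lost under DESeq2 size factors and library totals. Summed over the seed, which 9 tested entries share, the family did not pass the test (−0.24 ± 0.41, adjusted p = 0.742), and its level was lower in cultured Th2 in 3 of 4 sets. Members that differ by 1 or 2 bases can share reads in the counting, so a split between them is less certain than the family sum. Let-7b-5p and let-7c-5p differ at 1 position, and both fell. Whether miR-98-5p differed from them in its change was not tested.

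**Figure D4:**
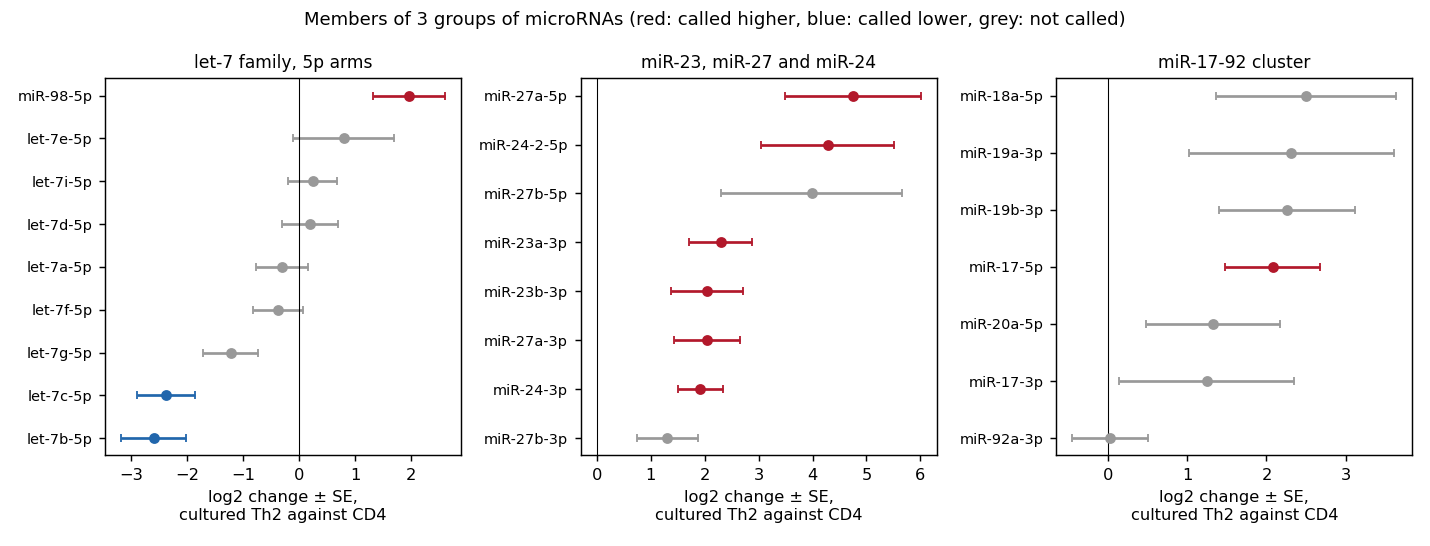
Log2 change ± SE, cultured Th2 against CD4, for the let-7 family (5p arms), for the miR-23, miR-27 and miR-24 clusters and for the miR-17-92 cluster, red where called higher, blue where called lower and grey where not called. The let-7 members spread from −2.59 to 1.96, while every plotted member of the other groups, which leave out minor arms of miR-17-92 other than miR-17-3p, has a value above 0, with miR-92a-3p at 0.03.

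The miR-17-92 cluster drives T cell expansion and lowers Bim. Of the 14 entries of its list 12 were tested, 1 of them called higher and none lower. This is near the 8.59% called higher among all entries and no result about the cluster. The list was drawn by name and also holds miR-19b-2-5p (not tested) and miR-92a-2-5p (tested) of the paralog miR-106a-363 cluster. The list's median log2 change was 1.61 (1.01 to 1.97 under the other scalings). The called entry, miR-17-5p, had 55747, 9806, 6054 and 1732 normalised CPM in cultured Th2 and 9821, 3721, 1191 and 402 in CD4 (log2 change 2.08 ± 0.59, adjusted p = 0.0212), and the adjusted p was above 0.05 when CD4 library 1, 3 or 4 or cultured Th2 library 1 was left out (up to 0.216). MiR-18a-5p (2.50 ± 1.13, adjusted p = 0.152), miR-19b-3p (2.26 ± 0.86, adjusted p = 0.0745) and miR-92a-3p (0.03 ± 0.48) were not called. For the paralog clusters miR-106a-363 and miR-106b-25, none of 11 tested entries was called, and their median was 0.86 under TMM but −0.10 under library totals.

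Counts were also summed over the entries with 1 seed, for the 1009 of 1256 entries with a RefSeq mature sequence matched here. The other entries were kept single, so a family's sum can lack members. Over 322 seed families and single entries, 38 were called (11.8%), 30 higher (9.32%) and 8 lower (2.48%), against 3 without the block. The miR-19 seed, held by miR-19a-3p and miR-19b-3p, was called higher (2.64 ± 0.85, adjusted p = 0.0326) though neither entry was called alone. Its sum was 2672, 4828, 26300.4 and 2841 normalised CPM in cultured Th2 and 1522, 4929.6, 1023 and 178 in CD4, higher in sets 1, 3 and 4 and slightly lower in set 2. The seed of miR-17-5p, which miR-20a-5p, miR-93-5p and miR-106b-5p share, was not called (1.25 ± 0.55, adjusted p = 0.146).

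The miR-130 and miR-301 seed, summed here over miR-130a-3p, miR-130b-3p and miR-301a-3p, was called higher (3.07 ± 0.79, adjusted p = 0.00687), at 8926, 4276, 3169 and 381 normalised CPM in cultured Th2 against 911, 471, 418 and 55.3 in CD4. The related miR-301b-3p was kept single and was also called higher. Of the entries summed, miR-301a-3p, from an intron of Ska2, was called on its own (log2 change 4.34 ± 1.25, adjusted p = 0.0212), and the adjusted p was above 0.05 when CD4 library 2, 3 or 4 or cultured Th2 library 1 was left out (up to 0.0869). The miR-103 and miR-107 seed, whose genes lie in introns of pantothenate kinase genes, was called higher (1.97 ± 0.58, adjusted p = 0.0218), at 129814, 5121, 5844 and 1648 in cultured Th2 and 25295, 3434, 739 and 833 in CD4. For miR-103-3p alone (log2 change 1.59 ± 0.50, adjusted p = 0.0343), the adjusted p was above 0.05 when CD4 library 1, 3 or 4 or cultured Th2 library 1 or 3 was left out (up to 0.525), and without library 1 of cultured Th2 the log2 change was 0.63. The miR-34 and miR-449 seed was higher too (4.72 ± 1.39, adjusted p = 0.0218), summed over miR-34a-5p and miR-449a-5p. Of these, miR-34a is known as a p53 target that holds back the cell cycle. MiR-34a-5p stood at 2026, 1494, 291 and 122 in cultured Th2 and 94.7, 6.56, 26.2 and 0 in CD4 (adjusted p = 0.0297). Its call was kept in 4 of 8 cases with 1 library left out (adjusted p up to 0.190) and in 2 of 4 with 1 set left out. Under library totals it was lost. The related miR-34c-5p was kept single and was called higher (log2 change 6.55, adjusted p = 0.0343), a call kept in 3 of 8 cases with 1 library left out. The miR-26 seed was lower (−1.83 ± 0.60, adjusted p = 0.0331).

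Further called entries had no list. MiR-130b-5p stood at 197, 411, 269 and 256 normalised CPM in cultured Th2 and 0, 47.1, 9.82 and 40.5 in CD4 (log2 change 5.21 ± 1.73, adjusted p = 0.0425), and miR-301b-3p at 1094, 765, 558 and 129.9 in cultured Th2 and 57.8, 8.2, 0 and 11.8 in CD4 (log2 change 4.50 ± 1.54, adjusted p = 0.0447). Both genes lie in 1 cluster in mouse, and both entries were higher in each set without overlap, but the adjusted p of miR-130b-5p was above 0.05 when any 1 CD4 library or cultured Th2 library 1 was left out, and that of miR-301b-3p when any 1 of the 8 was. MiR-7a-5p stood at 98714, 2413, 1132 and 638 in cultured Th2 and 8957, 1093, 191 and 223 in CD4 (log2 change 2.06 ± 0.67, adjusted p = 0.0419). Its call was lost under library totals. It was kept in 2 of 8 cases with 1 library left out (adjusted p up to 0.229) and in 0 of 4 with 1 set left out. MiR-296-3p stood at 1752, 1681, 1273 and 12839 in cultured Th2 and 349, 95.1, 49.1 and 888 in CD4 (log2 change 4.07 ± 1.06, adjusted p = 0.00967). It kept its call with each of the 8 libraries left out, and lost it under library totals. Of the 33 higher calls, 11 had an average log2 CPM below 6, among them miR-34c-5p and miR-1983. MiR-1983 stood at 189, 335, 127 and 47 in cultured Th2 and 0, 2.46, 0 and 0 in CD4.

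Entries with the names of the Sfmbt2 locus had a lower summed share of counts in cultured Th2. That locus is an imprinted rodent cluster of many near-identical microRNAs in an intron of Sfmbt2. The list was drawn by name, and whether each entry lies in that intron was not checked. Of 72 entries named miR-297, miR-466, miR-467 or miR-669, 36 were tested, 4 were called lower, beside 4.69% of all entries tested, and none higher, and 35 of 36 log2 changes were below 0, with a median of −2.45 (−3.35 to −2.09 under the other scalings). Their summed share was 0.164, 0.296, 0.0552 and 0.0297% of counts in cultured Th2 and 2.56, 1.31, 0.659 and 0.759% in CD4, and without overlap. MiR-669c-5p stood at 91.9, 319, 207 and 1133 normalised CPM in cultured Th2 and 7859.5, 1780.3, 1032 and 8721 in CD4 (log2 change −3.42 ± 1.17, adjusted p = 0.0473), and the adjusted p was above 0.05 when CD4 library 1, 3 or 4 or cultured Th2 library 1, 2, 3 or 4 was left out (up to 0.129). The other calls were miR-467a-5p and miR-467b-5p, which kept their call in 0 of 8 cases with 1 library left out (adjusted p up to 0.184), and miR-467e-5p, which kept it in 3 of 8 (up to 0.153). Under library totals without miR-21a-5p, miR-467e-5p alone of the 4 kept its call. Near-identical entries can be split by the counting, so single calls among them are uncertain.

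None of 10 tested entries of the miR-15 and miR-16 family, 5 of the miR-29 family, which restrains Tbx21 and Eomes in mouse, 11 of the miR-30 family and 4 of the miR-221 and miR-222 pair passed the test. With 13.3% of all entries called, lists of this size can hold no call, and this is no result about them. MiR-16-5p stood at 20482, 7729, 4504 and 579 normalised CPM in cultured Th2 and 21782, 17048, 14489 and 2414 in CD4 (log2 change −1.05 ± 0.55, adjusted p = 0.217). MiR-29a-3p stood at 63624, 34797, 39005 and 5081 in cultured Th2 and 73647, 79034, 77037 and 12656 in CD4 (log2 change −0.94 ± 0.43, adjusted p = 0.152). Both were lower in cultured Th2 in 4 of 4 sets without passing the test. The median of the miR-30 family was −1.01 (−1.77 to −0.65 under the other scalings).

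Up to 4 entries per list, those with the smallest p, were looked at singly. Beside those above, they had the following log2 changes ± SE, and no adjusted p was below 0.05. In the miR-29 family they were miR-29a-5p (2.39 ± 2.74), miR-29b-3p (1.47 ± 0.74) and miR-29c-3p (−1.27 ± 1.23). In the miR-30 family they were miR-30a-3p (−2.69 ± 1.41), miR-30d-5p (−0.90 ± 0.49), miR-30e-3p (−1.01 ± 0.65) and miR-30e-5p (−1.14 ± 0.56). Of all 11 tested miR-30 entries, 9 had a log2 change below 0 and 2 above 0. In the miR-15 and miR-16 family they were miR-15b-5p (−1.16 ± 0.71), miR-16-1-3p (1.36 ± 1.15) and miR-497a-5p (4.13 ± 2.02), and the family's median was 0.16 under TMM but −0.53 under library totals. MiR-26b-5p (−1.61 ± 0.67), which shares the seed of miR-26a-5p, and miR-26b-3p (−1.39 ± 2.45) lay below 0. MiR-181a-1-3p, the other arm of 1 miR-181a gene, had −4.32 ± 1.63. MiR-183-3p had 5.09 ± 2.40, and the 5p arms of miR-221 and miR-222 had 2.63 ± 1.89 and 2.08 ± 2.05.

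MiR-191-5p, an abundant microRNA of lymphocytes, had 4532, 10593, 1173 and 527 normalised CPM in cultured Th2 and 7686, 2754, 7323 and 6367 in CD4 (log2 change −1.03 ± 0.61, adjusted p = 0.28). Among the miR-99, miR-100, miR-125 and miR-10 group, tied to stem and progenitor cells, none of 10 tested entries was called, and the median of the 9 with counts was −0.78. Its leading entries by p were miR-125a-5p (−2.45 ± 1.07), miR-125a-3p (−5.10 ± 1.96), miR-99a-5p (−3.47 ± 1.82) and miR-99b-3p (3.34 ± 1.83). The Dlk1-Dio3 locus, a large imprinted cluster active in embryo and brain, was nearly silent. Its 79 entries made up 0.000683 ± 0.000631% of counts in cultured Th2 and 0.000702 ± 0.00118% in CD4 (n = 4 each), 63 of them were at 0 in all 8 libraries, and none was called.

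Markers of other cells were looked at beside these results. MiR-142a, found in all blood cells, was lower in its 5p arm (log2 change −1.51 ± 0.51, adjusted p = 0.0425). The adjusted p of that arm was above 0.05 when CD4 library 1, 2 or 4 or cultured Th2 library 2, 3 or 4 was left out (up to 0.237). That call was also lost under library totals without miR-21a-5p. The 3p arm of miR-142a and miR-30c-5p are listed at 0 in cultured Th2 library 2 and in CD4 libraries 3 and 4. Cultured Th2 library 1 held 9258 and CD4 library 1 held 107746 normalised CPM of miR-142a-3p, so no mean is given for these entries. Both arms of the myeloid marker miR-223 made up 0% to 0.00538% of counts in cultured Th2 and 0.000231% to 0.072% in CD4. Erythroid markers made up 0.00024% to 0.192% in cultured Th2 and 0.00185% to 0.443% in CD4, with the highest share of each group in set 3. MiR-122-5p, a liver microRNA, stood at 8.17, 0, 3771 and 433 normalised CPM in cultured Th2 and 2.99, 16.8, 345 and 17.7 in CD4, again highest in set 3. The part of such RNA in the results was not tested.

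MiR-126a-3p, an endothelial microRNA within Egfl7 that some blood cells also hold, was called higher at low levels, with 125, 250.1, 110.1 and 22.3 normalised CPM in cultured Th2 and 0, 26.6, 1.64 and 4.22 in CD4 (log2 change 4.25 ± 1.03, adjusted p = 0.00502). Its other arm, miR-126a-5p, had a log2 change below 0 and was not called. Both entries of miR-126a together made up 0.000452% to 0.0337% of counts in cultured Th2 and 0% to 0.0317% in CD4. This summed share was higher in cultured Th2 in 3 of 4 sets and lower in set 3 (0.0115% against 0.0317%). Of 7 tested epithelial entries, miR-203-3p was called lower (log2 change −4.36 ± 1.16, adjusted p = 0.0115), with 18.7, 9.2, 16.8 and 18.6 normalised CPM in cultured Th2 and 468, 536, 105 and 211 in CD4. For miR-203-3p the adjusted p was above 0.05 when CD4 library 1 or 2 or cultured Th2 library 2 was left out (up to 0.0707). The epithelial list made up 0.00728% to 0.0411% of counts in cultured Th2 and 0.0532% to 0.15% in CD4. The liver or muscle, mesenchymal, neural, erythroid and myeloid lists held no call.

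Neural marker entries were present at low share, 0.01% to 0.165% of counts in cultured Th2 and 0.0543% to 0.184% in CD4, most of it miR-128-3p, at 769.6, 1467, 211 and 272 normalised CPM in cultured Th2 and 2384, 1647, 394 and 1038 in CD4 (log2 change −1.19 ± 0.97, adjusted p = 0.431). Mesenchymal markers made up 0.000232% to 0.0224% in cultured Th2 and 0.00134% to 0.0128% in CD4, and liver or muscle markers 0.000186% to 0.289% in cultured Th2 and 0.000231% to 0.0475% in CD4. MiR-451a, the main erythroid marker, stood at 2.2, 14.2, 2407 and 171 normalised CPM in cultured Th2 and 0.997, 24.6, 1613 and 96.3 in CD4, and miR-486a-5p at 0.549, 3.76, 0 and 42.1 in cultured Th2 and 7.97, 1.64, 761 and 51.5 in CD4. None of these entries was called.

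Set directly against lung Th2 cells, with the cultured Th2 libraries shared with the comparison above, cultured Th2 differed in 7 of 384 entries (1.82%), 2 higher (0.521%) and 5 lower (1.3%). DESeq2 called 44, and without the block 2 were called. Lung Th2 libraries 1 to 3 had totals of 152596, 272152 and 84911 counts, below every cultured Th2 library. In lung Th2 library 3, 3 counts stand for 35.3 CPM of the total. The values of miR-210-3p and miR-532-5p in that library rest on fewer than 3 counts. Low values and zeros of the lung Th2 libraries are therefore uncertain. MiR-210-3p was higher in cultured Th2, where it stood at 36535, 13552, 7348 and 1641 normalised CPM, than in lung Th2 at 470.0, 178 and 11.3 (log2 change 6.58 ± 1.08, adjusted p = 3.81e-05). The lung Th2 libraries overlapped the CD4 libraries. Without the block the adjusted p was 0.0748. MiR-532-5p was the other one, at 739, 1639.8, 2405 and 9764 in cultured Th2 and 74.2, 265 and 22.6 in lung Th2 (log2 change 3.17 ± 0.84, adjusted p = 0.0278). Its adjusted p was above 0.05 without lung Th2 library 3 (0.135) and under library totals with or without miR-21a-5p, and cultured Th2 did not differ from CD4 in it beyond the threshold (log2 change 1.47 ± 0.71, adjusted p = 0.185).

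MiR-150-5p was lower in cultured Th2 than in lung Th2, which stood at 2020.4, 22638 and 42449 normalised CPM (log2 change −4.53 ± 0.62, adjusted p = 2.30e-06). MiR-146a-5p was lower too, against 20154, 10654 and 12199 in lung Th2 (log2 change −3.57 ± 0.57, adjusted p = 3.46e-05), and here its libraries did not overlap. Both kept their call with each of the 7 libraries left out and under 3 other scalings, and without the block miR-150-5p kept it (adjusted p = 0.0113) and miR-146a-5p did not (0.0748). MiR-150-3p was also called (log2 change −4.14 ± 1.07, adjusted p = 0.0242), but the adjusted p was above 0.05 when cultured Th2 library 1, 2 or 4 or lung Th2 library 1 was left out (up to 0.187). MiR-1a-3p, a muscle microRNA, is listed at 0 in all 4 cultured Th2 libraries, and in lung Th2 it had 0, 2299 and 0, so that call rests on lung Th2 library 2 (adjusted p = 1 without it). The fifth lower call was miR-184-3p, an epithelial microRNA. It is listed at 0 in 4 of 4 cultured Th2 libraries and stood at 82.5, 172 and 0 in lung Th2.

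**Figure D5:**
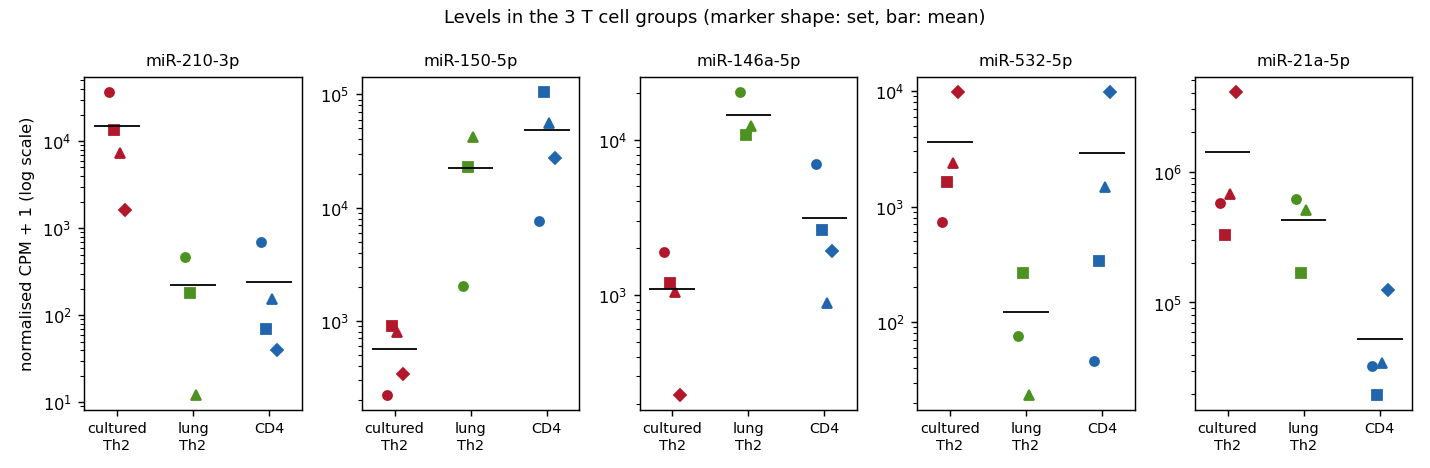
Normalised CPM plus 1 (log scale) of 5 microRNAs in cultured Th2 (n = 4), lung Th2 (n = 3) and CD4 (n = 4) libraries, with 1 marker shape per set and a bar at the group mean. MiR-210-3p is high in cultured Th2 alone among the plotted groups, and miR-146a-5p is highest in lung Th2, at 10654 or above in each library.

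The change on culture was set against that of ILC2, as (cultured Th2 minus CD4) minus (cultured ILC2 minus lung ILC2). It shares the cultured Th2 and CD4 libraries with the first comparison. The difference was called in 5 of 384 entries (1.3%), 3 higher (0.781%) and 2 lower (0.521%), and in none without the block, where 21 had an unadjusted p below 0.05 and DESeq2 with the block called 20. MiR-146a-5p differed most firmly (−4.90 ± 0.76, adjusted p = 3.14e-05). It stood at 72752, 35862, 38196 and 19735 normalised CPM in cultured ILC2 against 7519.7, 5162, 3531 and 1402 in lung ILC2, higher in each set, while in cultured Th2 it was lower than in CD4 in 3 of 4 sets. MiR-126a-3p differed by 8.29 ± 1.46, adjusted p = 2.13e-04, at 58.8, 241, 372 and 84.8 in cultured ILC2 and 2054, 10837, 3387 and 133 in lung ILC2. MiR-150-5p differed in the direction of a deeper fall in the T cells (−3.93 ± 0.77, adjusted p = 9.80e-04), and in ILC2 it stood at 21.9, 321, 554 and 102 in culture and 331, 2337, 902 and 244 in lung. These 3 kept their call with each of the 16 libraries left out.

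MiR-23a-3p (2.95 ± 0.80, adjusted p = 0.0483) and miR-24-3p (2.30 ± 0.57, adjusted p = 0.024) differed in the other direction from miR-146a-5p. MiR-23a-3p stood at 3692, 10393, 8379 and 1516 normalised CPM in cultured ILC2 against 4486, 17783, 10257 and 3839 in lung ILC2, lower in each set, whereas it was higher in cultured Th2 than in CD4 in each set. MiR-24-3p in ILC2 stood at 146718, 17169.8, 12708 and 1626 in culture and 105887, 37996, 13855 and 2056 in lung, higher in set 1 and lower in the other sets. These calls were lost in most cases with 1 library left out, where miR-23a-3p kept its call in 2 of 16 cases (adjusted p up to 0.281) and miR-24-3p in 4 of 16 (up to 0.212).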

How the data were processed

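Small RNA was extracted with Trizol LS and a miRNAeasy micro kit, per the labels' protocols. The authors deposited 4 tables of expected counts per microRNA entry, of which 9.98% above 0 are fractional, and 1 table of RPM, scaled by the authors to a column sum of 1000000. Build mm10 and DESeq2 are named, with no role or version, per the submitters' processing notes. For the aligner, trimming and annotation, the sources used here give no name. An entry absent from a table was set to 0, counts were rounded, 6 columns of the authors' averages were not used, and 1 empty line was dropped.

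All 23 libraries entered 1 fit in edgeR 4.0.16 (R 4.3.3): TMM scaling, filterByExpr by group, the count table (set) as a block, since libraries of 1 number stand in 1 table in the labels, quasi-likelihood F-tests, and Benjamini-Hochberg adjustment over the 384 entries that passed. The SE of a change is its size divided by the square root of F. Deviations from the group means of cultured Th2 and CD4 libraries of the same set correlated at 0.63, −0.04, 0.23 and 0.70 in sets 1 to 4 over 204 entries. The biological coefficient of variation was 1.13 with the block and 1.54 without. Counts per seed family were summed and fitted in the same way. RPM values entered limma 3.58.1 with log2(RPM + 1) and log2(RPM + 10), and DESeq2 1.42.0 was run on the counts, both as alternatives. The procedure was also run on simulated data, drawn with a smaller spread than that of these data. That run thus does not show how the procedure behaves at the spread seen here.

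The entries named are calls with an average log2 CPM of at least 6 and the same direction in 4 of 4 sets (the 12 largest and 12 smallest changes), up to 4 entries of each list by p, the 5 most abundant of each group, both arms of miR-21a, miR-155, miR-146a, miR-150 and miR-181a, markers of at least 100 CPM, and the leading calls of the other comparisons and of the seed families. Entries described beyond this rule were chosen after their values were seen: miR-103-3p, miR-27a-3p and miR-23b-3p, the remaining calls of their list or seed, miR-7a-5p, miR-130a-3p, miR-130b-3p, miR-20a-5p, miR-93-5p, miR-449a-5p, miR-30c-5p, miR-92a-3p, miR-17-3p, miR-184-3p, miR-34c-5p, miR-296-3p and miR-1983. The members and lists were chosen with earlier results of these data known.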

Additional observations from a re-analysis of the deposited data

Results flagged for a closer look

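Among the 33 named and called entries, 66 groups of 4 libraries were searched for a library whose gap to the nearest other, on the log2 scale of normalised CPM plus 1, was large for the range of the group (Dixon's ratio above its 95% critical value), and 5 were found. Chance gives about 1 in 20 groups. Cultured Th2 library 4 held 32698 normalised CPM of miR-183-5p, beside 2107 to 2449.6 in the other cultured libraries. The low TMM factor of that library (0.20) raises its normalised CPM, and the search was not run on shares of counts. CD4 library 1 held 55963 of let-7b-5p, beside 21347 to 23980.0 in the others. Cultured Th2 library 2 held 9.2 of miR-203-3p, beside 16.8 to 18.7. CD4 library 4 held 106389.7 of miR-140-3p, beside 9885 to 11844. CD4 library 2 held 6.56 of miR-155-3p, which the other CD4 libraries list at 0.

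The change on culture differed between T cells and ILC2 by the direct test for 5 microRNAs: by 8.29 for miR-126a-3p, −4.90 for miR-146a-5p, −3.93 for miR-150-5p, 2.95 for miR-23a-3p and 2.30 for miR-24-3p, in log2 units. For miR-146a-5p the groups moved apart, as cultured ILC2 were above lung ILC2 in 4 of 4 sets and cultured Th2 were below CD4 in 3 of 4 sets.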

How the results depend on the processing

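The count of calls of cultured Th2 against CD4, 51, was 4 with no replicate block, 21 with no filter on low counts and 77 with limma on log2(RPM + 10), where 24 were higher and 53 lower. The other alternatives that kept all libraries gave 35 to 73, with 11 higher and 24 lower under library totals and 17 higher and 32 lower with limma on log2(RPM + 1), against 33 and 18. With cultured Th2 library 1 thinned to the total of CD4 library 1, an alternative chosen after seeing the data, 35 calls were left, and all of these were among the 51. Leaving out 1 library or 1 set gave 18 to 42.

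Against lung Th2, the 7 calls became 2 with no replicate block, 13 with library totals, 11 with no filter, 44 with DESeq2 and 19 with limma on log2(RPM + 1), and 4 to 23 with 1 library or set left out. For the difference from ILC2, the 5 calls became 0 with no replicate block, 2 with no filter and 20 with DESeq2, and 2 to 11 with 1 library or set left out. The 38 seed families became 3 with no replicate block and 60 with DESeq2, and 15 to 30 with 1 library or set left out. The causes were not tested. Values under alternatives were compared for named or called entries of the first comparison and for calls of the lung Th2 and ILC2 comparisons. Of these values, 2290 kept their side of the threshold, 542 lost and 63 gained a call. None reversed where the main fit or the alternative made a call. Where neither made a call, the direction was not compared. Depth and the number of libraries limit low entries: 11 of the 33 higher calls had an average log2 CPM below 6, and for 4 all CD4 libraries are at 0.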
